A study of Mus musculus with 12 samples.

Results

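Stable structured RNAs are the short noncoding RNAs that fold and stay bound in ribonucleoproteins. 8 of them were followed in nascent and total RNA of mouse macrophages. The set holds every gene symbol with an array probe set of its own that names a 5S ribosomal RNA, a Y RNA or a vault RNA, together with Rpph1, Rmrp, Rn7sk and Terc. This gave 8 of the 19938 symbols measured, n-R5s136, Rny1, Rny3, Vaultrc5, Rpph1, Rmrp, Rn7sk and Terc, with 9 probe sets. Only Rn7sk had a pair of them, and the one with the higher mean over all arrays was used.

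Bone marrow cells of C3H/HeN mice were grown into macrophages with interleukins, stem cell factor and L-cell conditioned medium, the source of macrophage colony stimulating factor. Cells were then exposed to 100 ng/ml lipopolysaccharide (LPS), a bacterial outer membrane component that activates macrophages, for 45 or 270 min, or were left without it (0 min). All cultures, the unstimulated ones included, received 200 µM of the uridine analogue thiouridine for their last 35 min. Nascent RNA is the thiouridine-containing RNA that was biotinylated and caught on streptavidin beads, and total RNA is the RNA before that step, old and new together. With 3 times, 2 fractions and 2 independent experiments there were 12 Affymetrix Mouse Gene ST arrays, 2 in each of 6 groups, from 6 cultures. Each nascent array and its total array come from the same culture.

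The 8 RNAs do different work. 5S RNA is a component of the large ribosomal subunit, Y RNAs bind the Ro60 protein, and vault RNA sits in the vault particle, whose shell is the major vault protein. Rpph1 is the catalytic RNA of RNase P, which trims the leader off transfer RNA precursors, and Rmrp is the RNA of the related RNase MRP, which takes part in ribosomal RNA processing. Rn7sk (7SK) holds the transcription elongation kinase P-TEFb inactive, and Terc is the template RNA of telomerase. All but Terc are made by RNA polymerase III, and Terc is made by RNA polymerase II. Ribosomal RNA is long-lived in mammalian cells, so that little of its pool is made in a short labelling window.

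Values are log2 intensities per probe set, and a difference is nascent minus total within a culture unless stated. They stand relative to the rest of the genes on an array, since the array input was fixed (100 ng for nascent RNA, 200 ng for total RNA) and RMA scales the arrays. A nascent-minus-total difference is therefore no amount per cell, and fewer cells making an RNA and less RNA per cell cannot be told apart in such bulk samples. The 95th percentile of 1027 olfactory receptor symbols on each array, 6.18 to 6.8, served as background level. Probe set intensities had medians of 95.9 to 105.33 on the nascent arrays and 82.94 to 94.86 on the total arrays, so that the medians of the fractions did not overlap. The replicate arrays of a group correlated across genes at r = 0.9806 to 0.9891. The number of arrays limits the precision. All 9 macrophage markers measured were above background on all 6 total RNA arrays, with means from 9.91 for Mertk to 13.6 for Lyz2. Of the markers of other marrow cells 0 of 2 for B cells (Cd79a, Ms4a1) and 0 of 5 for neutrophils were above it on all 6, against 2 of 4 for mast cells (Cpa3, 7.75, and Kit, 7.04), 1 of 3 for dendritic cells (Zbtb46, 7.06) and 1 of 3 for T cells (Cd3e, 6.57).

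Relative to other genes, 7 of the 8 RNAs read lower in nascent RNA than in total RNA at every time. For Rny1 at 0 min this held for measured values only, with no fold over background. Over all 6 cultures the mean difference was -4.21 ± 0.16 for Vaultrc5, -4.17 ± 0.12 for Rny3, -3.64 ± 0.14 for Rpph1 and -3.56 ± 0.14 for n-R5s136 (SE from limma, 6 cultures). Rmrp differed by -2.77 ± 0.16, Rny1 by -2.46 ± 0.19 and Rn7sk by -1.26 ± 0.14. Vaultrc5 and Rny1 were under background on all 6 nascent arrays, so that their differences are bounds only: at least 5.43-fold lower for Vaultrc5 and at least 1.06-fold lower for Rny1. As measured, 9 symbols lay below Rmrp and 535 below Rn7sk, and only Vaultrc5, Rny3 and Rpph1 lay below n-R5s136. Terc differed by 0.22 ± 0.12 (adjusted p = 0.166, 95% interval -0.03 to 0.46). Limma called 7 of 8 lower and 0 higher at an adjusted p below 0.05, with 0 higher also at an unadjusted p under 0.05. Of all symbols 17.2% were called lower and 17.4% higher in this mean of 3 times. The median difference was -3.16 over the 8 RNAs and 0.08 over all symbols.

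**Figure D1:**
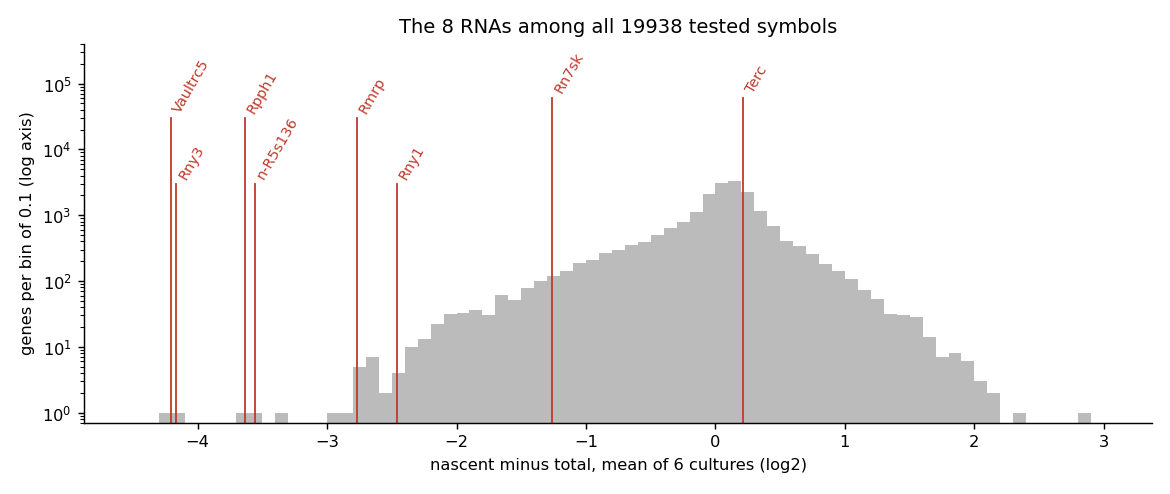
Histogram of nascent minus total RNA (log2, mean of 6 cultures) for all 19938 symbols, with symbols per bin of 0.1 on a log axis. Red lines mark the 8 RNAs: Rny3, Rpph1 and n-R5s136 lie at the low end, between -4.17 and -3.56, and Terc lies in the bulk at 0.22. Vaultrc5 (-4.21) and Rny1 (-2.46) are drawn at their measured values, though under background in nascent RNA.

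The same 7 RNAs were called lower at each time taken alone. In unstimulated cells 7 of 8 were lower in nascent RNA, against 8.42% of all symbols called lower and 7.58% higher. At 45 min of LPS it was 7 of 8 against 14.2% lower and 11.2% higher, and at 270 min 7 of 8 against 9.03% lower and 6.24% higher. The median difference of the 8 RNAs was -2.85, -3.08 and -3.50 at 0, 45 and 270 min, beside 0.01, 0.15 and 0.05 over all symbols. All 7 lay below 0 in each of the 6 cultures, as did 2658 of all symbols. The 6 nascent values of Rny1, Rny3, Vaultrc5, Rpph1, Rmrp and n-R5s136 all lay under their 6 total values. Such a separation was found for 4.67% of all symbols. Rny1 enters these counts by its measured values, though both its fractions were under background in experiment 1 at 0 and 45 min.

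**Figure D2:**
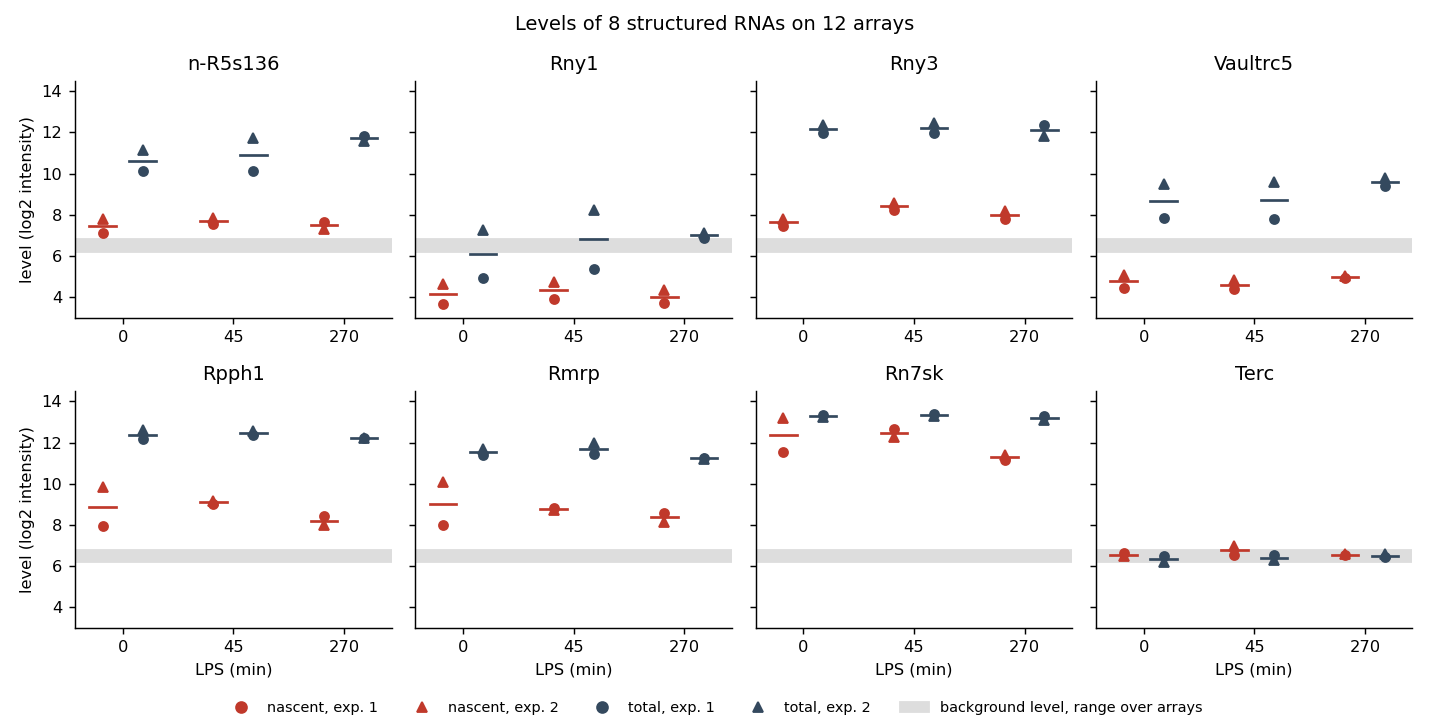
Level (log2 intensity) of each RNA on each of the 12 arrays, nascent RNA in red and total RNA in dark blue at 0, 45 and 270 min of LPS. Circles are experiment 1, triangles experiment 2, bars the mean of both, and the grey band is the range of the background level over arrays; Vaultrc5 and Rny1 are under it in nascent RNA and Terc lies in or near it throughout.

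The 5S ribosomal RNA was measured through n-R5s136. RefSeq lists 69 n-R5s genes in the mouse (assembly GRCm38.p6), 42 of them on the chromosome of n-R5s136. 5S copies are near-identical, so this probe set is not taken to tell them apart and is read here as the level of 5S RNA. That reading is an assumption, as the probes were not compared with the copies. In nascent RNA n-R5s136 had 7.09 and 7.77 at 0 min, 7.54 and 7.84 at 45 min and 7.67 and 7.29 at 270 min (experiments 1 and 2). In total RNA it had 10.13 and 11.14 at 0 min, 10.11 and 11.72 at 45 min and 11.85 and 11.58 at 270 min. The nascent values stayed within a narrow band, while total RNA of experiment 1 was lower at 0 and 45 min than every other total RNA array. The difference was -3.21 ± 0.25 at 0 min (9.23-fold lower in nascent RNA, adjusted p = 1.35e-07), -3.23 ± 0.25 at 45 min (adjusted p = 2.46e-08) and -4.24 ± 0.25 at 270 min (18.9-fold lower, adjusted p = 1e-09).

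Rny3, a Y RNA, had 7.45 and 7.81 in nascent RNA at 0 min, 8.24 and 8.57 at 45 min and 7.79 and 8.16 at 270 min. Its total RNA values were 11.97 and 12.37 at 0 min, 11.98 and 12.45 at 45 min and 12.38 and 11.85 at 270 min. This was the most even of the 7 RNAs between cultures, with 6 differences from -4.59 to -3.69. Its difference was -4.54 ± 0.21 at 0 min (23.3-fold lower in nascent RNA, adjusted p = 9.87e-11), -3.81 ± 0.21 at 45 min and -4.14 ± 0.21 at 270 min.

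Rny1, the other Y RNA, lay near or under background. In nascent RNA it read 3.64 and 4.65 at 0 min, 3.91 and 4.75 at 45 min and 3.69 and 4.36 at 270 min, under background on all 6 arrays. In total RNA it read 4.93 and 7.24 at 0 min, 5.38 and 8.22 at 45 min and 6.86 and 7.13 at 270 min, above background on 4 of 6 arrays, the exceptions being experiment 1 at 0 and 45 min. The measured difference was -1.94 ± 0.33 at 0 min, -2.47 ± 0.33 at 45 min and -2.97 ± 0.33 at 270 min (adjusted p = 0.000255, 1.01e-05 and 2.03e-06). Against the background level Rny1 was at least 1.13-fold lower in nascent RNA at 45 min and at least 1.22-fold lower at 270 min, and no bound above 1 could be given at 0 min. The 45 min bound is for the mean of both experiments and rests on experiment 2, since total RNA of experiment 1 was itself under background. Without the replicate block, that is without pairing of the fractions, the call at 0 min was lost (adjusted p = 0.144), and the difference was -1.29 in experiment 1 and -2.59 in experiment 2. Rny1 and Rny3 share Pdia4 as nearest measured protein-coding gene.

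The vault RNA Vaultrc5 had 4.46 and 5.09 in nascent RNA at 0 min, 4.39 and 4.82 at 45 min and 4.91 and 5.0 at 270 min. In total RNA it had 7.83 and 9.51 at 0 min, 7.81 and 9.6 at 45 min and 9.39 and 9.78 at 270 min. All 6 nascent values were under background and all 6 total values were above it. Vaultrc5 was at least 5.14-fold lower in nascent RNA at 0 min, at least 4.24-fold lower at 45 min and at least 7.35-fold lower at 270 min. The measured differences were -3.89 ± 0.28, -4.10 ± 0.28 and -4.63 ± 0.28 (adjusted p = 4.01e-08, 6.21e-09 and 1.02e-09).

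Rpph1, the RNA of RNase P, had 7.92 and 9.86 in nascent RNA at 0 min, 9.03 and 9.15 at 45 min and 8.41 and 7.98 at 270 min. Its total RNA level was 12.15 and 12.6 at 0 min, 12.39 and 12.57 at 45 min and 12.24 and 12.22 at 270 min. Total RNA levels of Rpph1 were nearly constant, and the highest nascent value was that of unstimulated cells in experiment 2. The difference was -3.48 ± 0.25 at 0 min (11.2-fold lower in nascent RNA, adjusted p = 4.01e-08), -3.39 ± 0.25 at 45 min (10.5-fold) and -4.03 ± 0.25 at 270 min (16.4-fold).

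Rmrp, the RNA of RNase MRP, followed Rpph1 at a smaller distance. In nascent RNA Rmrp had 8.01 and 10.06 at 0 min, 8.81 and 8.74 at 45 min and 8.57 and 8.15 at 270 min. In total RNA it had 11.38 and 11.68 at 0 min, 11.45 and 11.97 at 45 min and 11.24 and 11.22 at 270 min. As with Rpph1, the array of unstimulated nascent RNA of experiment 2 was the highest. The difference was -2.50 ± 0.28 at 0 min (5.67-fold lower in nascent RNA, adjusted p = 4.83e-06), -2.93 ± 0.28 at 45 min (7.62-fold) and -2.87 ± 0.28 at 270 min (7.33-fold). At 0 min it was -3.38 in experiment 1 and -1.63 in experiment 2.

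Rn7sk, the RNA that holds P-TEFb, had the smallest difference of the 7. Its nascent levels were 11.52 and 13.17 at 0 min, 12.64 and 12.27 at 45 min and 11.17 and 11.4 at 270 min. Its total levels were 13.36 and 13.26 at 0 min, 13.41 and 13.31 at 45 min and 13.27 and 13.11 at 270 min. The fractions overlapped through the unstimulated nascent array of experiment 2 alone. The difference was -0.96 ± 0.24 at 0 min (1.95-fold lower in nascent RNA, adjusted p = 0.00781), -0.91 ± 0.24 at 45 min (adjusted p = 0.00819) and -1.91 ± 0.24 at 270 min (3.75-fold, adjusted p = 1.05e-05).

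The Rn7sk call at 0 min rested on experiment 1: the difference was -1.84 in experiment 1 and -0.09 in experiment 2, and limma did not call it without experiment 1 (adjusted p = 0.945). Without pairing the calls at 0 min (adjusted p = 0.108) and 45 min (adjusted p = 0.0872) were lost, and at 45 min also without experiment 1 (-1.04) or experiment 2 (-0.77). Its other probe set had 10.43, 13.12, 12.12, 12.15, 10.39 and 10.6 in nascent RNA (experiments 1 and 2 at 0, 45 and 270 min). On the total RNA arrays that probe set had 13.43, 13.55, 13.5, 13.59, 13.37 and 13.28. It gave a larger mean difference, -1.98 ± 0.19 (adjusted p = 4.25e-08), and no overlap of the fractions.

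Terc, the RNA of telomerase, had 6.61 and 6.5 in nascent RNA at 0 min, 6.55 and 6.96 at 45 min and 6.54 and 6.57 at 270 min. It had 6.47 and 6.18 in total RNA at 0 min, 6.51 and 6.27 at 45 min and 6.42 and 6.57 at 270 min. On all 12 arrays Terc lay between 0.23 under and 0.32 over the background level, above it on 8. At that level no difference between the fractions was detectable, with an interval of -0.03 to 0.46 for the mean over the 3 times.

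**Figure D3:**
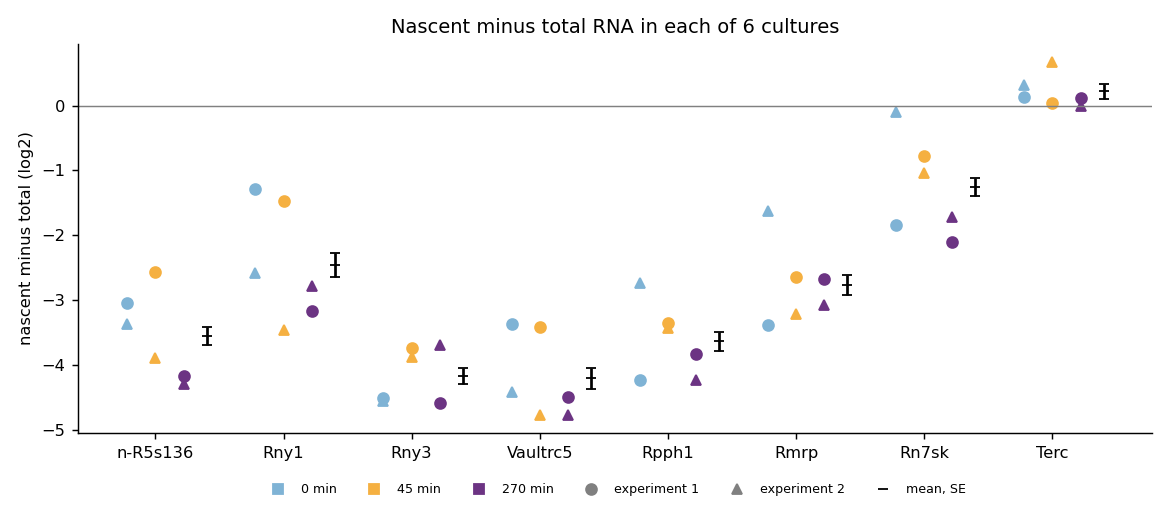
Nascent minus total RNA (log2) of the 8 RNAs in each of the 6 cultures, coloured by LPS time, with circles for experiment 1 and triangles for experiment 2. Black bars give the mean over the 3 times with limma's SE; Rny3 is tightly grouped between -4.59 and -3.69, whereas Rn7sk runs from -2.1 to -0.09.

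Other short noncoding RNAs on the arrays are given for comparison. Of 54 small nucleolar and Cajal body RNAs, which guide modification of other RNAs, 41 were called higher in nascent RNA and 3 lower, with a median difference of 1.18. Most of these lie in introns of host genes, so that their probe sets can read the host transcript as well. The 38 of them above background in total RNA ran from -2.29 (Scarna17) to 2.08. Of 300 microRNA genes, 101 of them above background in total RNA, 134 were called higher and 1 lower. The calls were counted over all 300, so some fell on genes not above background in total RNA. Whether these probe sets read the short RNA or a longer transcript was not examined. Of 5 symbols starting with Rnu, a set taken by name alone, 1 was called higher. The only one above background in total RNA was Rnu3a (-0.27), a U3 small nucleolar RNA, so no small nuclear RNA could be compared at that level. Ribosomal protein genes were called lower in nascent RNA in 55 of 71 cases, with a median of -1.21, the same direction as the 7 RNAs at a smaller size. RNA lifetimes were not measured here, and their part in these values was not tested. No test of these sets against the 8 RNAs was made.

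The differences can be set beside those of symbols of like intensity, although intensities of different probe sets do not rank RNA amounts. Among 89 symbols with a mean total level of 12 to 13, where Rny3 and Rpph1 lie, the median difference was -0.7, with the 5th percentile at -2.15. Among 329 symbols at 11 to 12, the range of Rmrp and n-R5s136, the median was -0.49 and the 5th percentile -2.02. All 4 RNAs were below these 5th percentiles. Rn7sk was not clearly below its own: among 21 symbols at 13 to 15 the median was -0.58. The 5th percentile there was -1.26, and Rn7sk also stood at -1.26. The RNAs themselves are counted in these bins.

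Genes near them were looked at as well. Parp2, the nearest measured protein-coding gene to Rpph1, differed by -0.36 between the fractions, Ccdc107 near Rmrp by -0.52, Cilk1 near Rn7sk by -0.17, Rhou near n-R5s136 by 0.06 and Zmat2 near Vaultrc5 by -0.85. Pdia4, near both Y RNAs, differed by -1.8. BC107364, near Terc, was above background on 0 arrays and differed by 0.22, as Terc did.

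Length was looked at because the labels describe a spin column clean-up for the eluted nascent RNA and state none for total RNA. RefSeq entries of the 8 RNAs are 101 (Rny3), 111 (Rny1), 121 (n-R5s136), 275 (Rmrp), 325 (Rpph1), 332 (Rn7sk), 345 (Vaultrc5) and 397 (Terc) nucleotides long. The Vaultrc5 entry is annotated as a long noncoding RNA and is longer than a mature vault RNA, so its length here may not be that of the RNA measured. Across the 8 RNAs length and difference were correlated at r = 0.48 (Spearman 0.29, n = 8). Across 39 small nucleolar and Cajal body RNAs above background, Rnu3a included, they were correlated at r = 0.04 (Spearman -0.1). The points share the same 12 arrays and are no replicates. Among these 39, the 18 entries shorter than 100 nucleotides had a median difference of 0.94. They ran from -2.29 (Scarna17) and -2.24 (Snord57) to 2.08. The 15 entries from 100 to under 150 nucleotides had a median of 1.46 and ran from -0.28 to 1.96. Many of these probe sets can read a host transcript as well, so the entry length need not be that of the RNA caught. The part of the clean-up in the low nascent values was not tested.

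**Figure D4:**
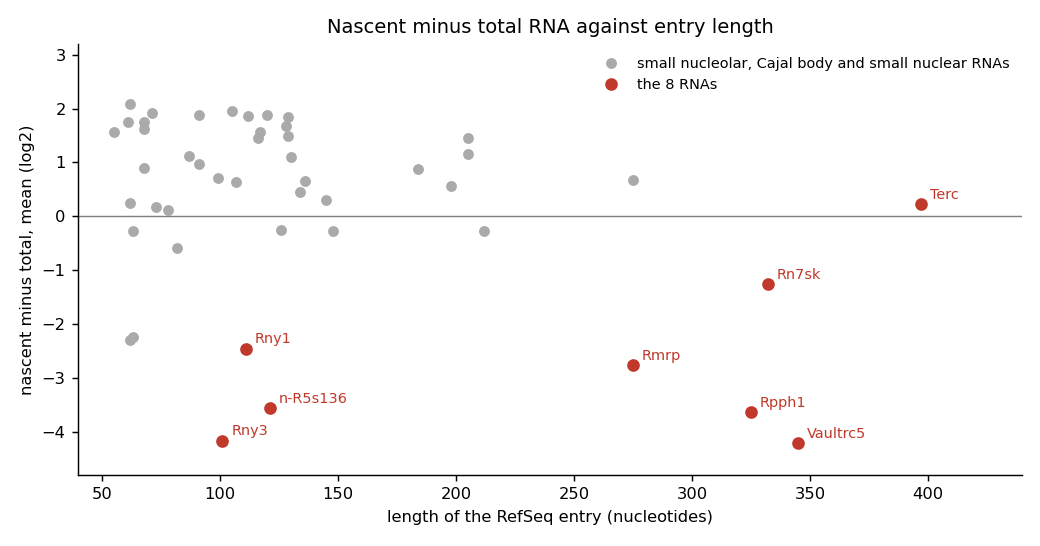
Nascent minus total RNA (log2, mean of 6 cultures) against the length of the RefSeq entry in nucleotides, for the 8 RNAs (red, named). Grey points are 39 small nucleolar and Cajal body RNAs above background in total RNA, with Rnu3a, which the legend counts as small nuclear. Rny3 (-4.17) and n-R5s136 (-3.56) lie at about the same length as grey points between -0.28 and 1.96, and Rpph1 (-3.64) lies as low at a greater length. Vaultrc5 is placed at the length of its RefSeq entry, which exceeds a mature vault RNA, and at its measured value, which is under background in nascent RNA.

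Between times, only Rn7sk passed the test, in nascent RNA at 270 min. In total RNA limma called 0 of 8 at 45 min, also 0 at an unadjusted p under 0.05, against 0.662% of all symbols higher and 0.0201% lower. At 270 min it called 0 of 8, with 1 at an unadjusted p under 0.05, against 7.02% higher and 12% lower. Rny3 differed in total RNA by -0.05 ± 0.26 at 270 min (95% interval -0.61 to 0.51), Rpph1 by -0.14 ± 0.43 (-1.07 to 0.78) and Rn7sk by -0.12 ± 0.36 (-0.88 to 0.65). n-R5s136 was 1.08 ± 0.44 higher than at 0 min (adjusted p = 0.113), which passed with a replicate block for the experiment (adjusted p = 0.0367). With the total array of experiment 2 at 0 min left out n-R5s136 (1.59, adjusted p = 0.0455) and Vaultrc5 (1.76, adjusted p = 0.031) were both called higher at 270 min by limma. With that of experiment 1 left out they differed by 0.58 and 0.08.

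In nascent RNA limma called 0 of 8 at 45 min, against 3.05% of all symbols higher and 5.88% lower, with 1 at an unadjusted p under 0.05. This 1 was Rny3, at 0.77 ± 0.26 (adjusted p = 0.0883), which was called higher with the replicate block (adjusted p = 0.0271) and with quantile scaling (1.04, adjusted p = 0.0215). At 270 min 1 of 8 was called, against 8.87% of all symbols higher and 14.2% lower. Rn7sk fell by 1.06 ± 0.36 on the log2 scale in nascent RNA (adjusted p = 0.0459), to 11.17 and 11.4 at 270 min, against 11.52 and 13.17 at 0 min. With that 0 min array of experiment 2 left out the change of Rn7sk was -0.24, and the call was also lost without either 270 min array (-0.95 and -1.17). The other Rn7sk probe set gave -1.28 ± 0.54 (adjusted p = 0.105). With the 0 min array of experiment 1 left out instead, Rn7sk (-1.88), Rmrp (-1.70) and Rpph1 (-1.66) were all called lower at 270 min, so that the time comparison of these 3 RNAs turned on which unstimulated array was kept.

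Whether the nascent-minus-total difference itself moved with LPS was tested directly. For 45 against 0 min limma called 0 of 8, against 0.476% of all symbols higher and 0.567% lower, and for 270 against 0 min 0 of 8, against 0.12% higher and 0.722% lower. At an unadjusted p under 0.05 there were 1 and 3. These were Rny3 at 45 min (0.73 ± 0.30, adjusted p = 0.311), and n-R5s136 (-1.03 ± 0.35, adjusted p = 0.335), Rn7sk (-0.94 ± 0.34, adjusted p = 0.402) and Rny1 (-1.03 ± 0.46, adjusted p = 0.638) at 270 min. The 270 min values depended on the unstimulated cultures: without that of experiment 1 limma called Rn7sk, Rpph1 and Rmrp, and without that of experiment 2 Rny1, Vaultrc5 and n-R5s136, while Rn7sk (-1.13) was also called without the 270 min culture of experiment 2.

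The 2 experiments did not give the same spread for all 8 RNAs, and the arrays that stood apart were different ones for different RNAs. In unstimulated nascent RNA experiment 2 exceeded experiment 1 by 1.94 for Rpph1, 2.05 for Rmrp and 1.65 for Rn7sk. The middle 90% of all symbols on those arrays lay between -0.5 and 0.69. At 45 and 270 min the same 3 RNAs differed by -0.43 to 0.22 between experiments in nascent RNA, and by -0.16 to 0.52 in total RNA at any time. In total RNA it was Rny1, Vaultrc5 and n-R5s136 that differed, by 2.31, 1.68 and 1.01 at 0 min and by 2.84, 1.79 and 1.61 at 45 min, experiment 2 being higher. At 270 min these 3 differed by -0.27 to 0.39. Rny3 differed by -0.53 to 0.47 over all 6 groups.

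Small nucleolar and Cajal body RNAs had a median difference between experiments of 0.47 in unstimulated nascent RNA, and of 0.17 and 0.59 in total RNA at 0 and 45 min. For ribosomal protein genes these medians were 0.24, 0.07 and 0.15. What set these arrays apart was not tested. With either culture of 0, 45 or 270 min left out, the mean difference over the times stayed called for all 7 RNAs.

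**Figure D5:**
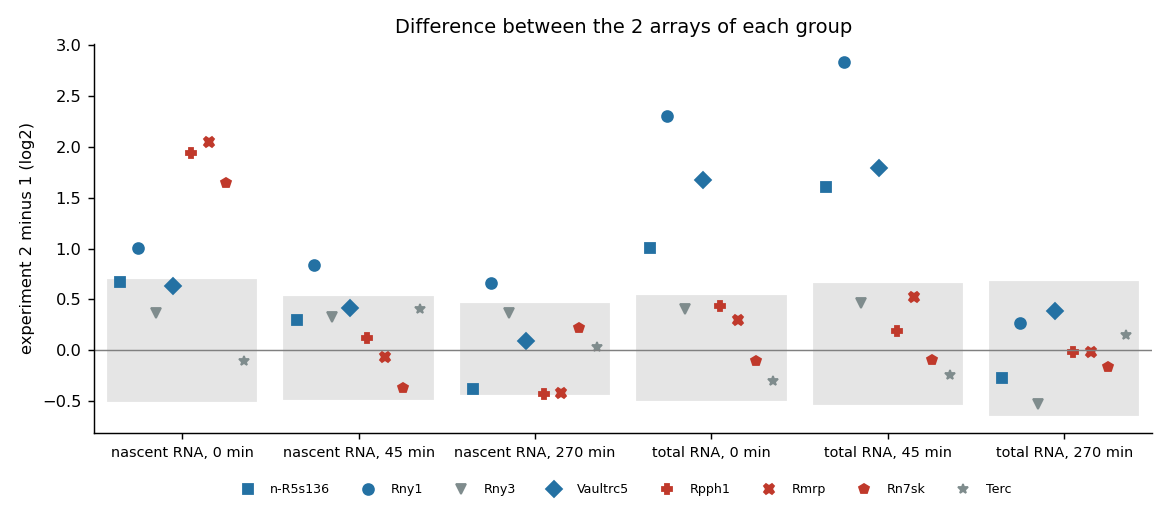
Difference between the 2 arrays of each group (experiment 2 minus experiment 1, log2) for the 8 RNAs, with grey boxes from the 5th to the 95th percentile of all symbols. Rpph1, Rmrp and Rn7sk (red) leave the box in unstimulated nascent RNA, and Rny1, Vaultrc5 and n-R5s136 (blue) leave it in total RNA at 0 and 45 min.

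Genes of the proteins that make these RNAs or bind them were called in both directions between the fractions, beside 17.4% of all symbols called higher and 17.2% lower. These shares are the background for each list that follows, and several of the counts lie near them. Of 12 RNA polymerase III subunits 3 were higher and 5 lower in nascent RNA over the 3 times, led by Polr3e (1.57 ± 0.15), Polr3gl (-1.32 ± 0.12) and Polr3a, the largest subunit (0.70 ± 0.12). The list of 16 polymerase III transcription factors includes their repressor Maf1. Of these 16, 4 were higher and 4 lower, Maf1 (-0.84 ± 0.15) among the lower. It was led by Snapc5 (-1.30 ± 0.13), Gtf3a, the factor specific to 5S genes (-0.93 ± 0.12), and Gtf3c6 (-0.89 ± 0.12). The medians of the subunit and factor lists were 0.11 and 0.22, near that of all symbols.

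Among binding partners, Rpl5, which carries 5S RNA into the ribosome, differed by -1.43 ± 0.09, and the assembly factor Rrs1 by 0.95 ± 0.13, 1 of 3 in each direction. Ro60 differed by 0.34 ± 0.12, 1 of 2 called. Mvp, the major vault protein and the only vault protein gene measured alone, differed by -0.93 ± 0.15. Of 11 RNase P and RNase MRP protein genes 2 were higher and 3 lower, with Rpp38 at 0.96 ± 0.12 and Rpp30 at -0.47 ± 0.13. Rpp40 (-0.81 ± 0.10) was also called, but its nascent values were under background on all arrays and no fold is given. Of 7 genes of the 7SK particle and P-TEFb 5 were higher and 1 lower, with cyclin Ccnt1 at 1.17 ± 0.13 and the inhibitor Hexim1 and the capping enzyme Mepce each at 0.61. Of 7 telomerase protein genes 3 were lower, Nop10 (-1.11 ± 0.12), Nhp2 (-0.61 ± 0.13) and Dkc1 (-0.36 ± 0.12).

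Several of these genes were called between times. In nascent RNA at 45 min Polr3k fell by 1.02 ± 0.18 (adjusted p = 0.00319), Maf1 by 1.43 ± 0.30, Rpp14 by 1.39 ± 0.20 and Ro60 by 0.68 ± 0.19, while Hexim1 rose by 1.24 ± 0.25 and Nhp2 by 1.32 ± 0.25. At 45 min 3 of 12 polymerase III subunits and 4 of 11 RNase P and MRP protein genes were lower, against 5.88% of all symbols. So were 5 of 16 in the factor list, the repressor Maf1 among them, and 1 factor was higher (Gtf3c5, 0.99 ± 0.23). In the other lists 2 of 7 telomerase, 1 of 2 Ro60 and La, 0 of 7 7SK, 0 of 3 5S and 0 of 1 vault genes were lower. At 270 min nascent Rrs1 had risen by 2.17 ± 0.54, and Maf1 (-1.46 ± 0.30), Hexim1 (-1.07 ± 0.25) and Ro60 (-0.71 ± 0.19) had fallen. Polr3g was at least 1.07-fold lower and Dkc1 at least 1.3-fold lower in nascent RNA. Total RNA at 270 min had Gtf3a at -1.24 ± 0.31, Ro60 at -0.82 ± 0.19, Cdk9, the kinase of P-TEFb, at -0.94 ± 0.28 and Rrs1 at 2.13 ± 0.54. There Polr3g was at least 1.54-fold lower and Dkc1 at least 1.53-fold lower. In nascent RNA at 270 min 3 of 12 subunits and 4 of 11 RNase P and MRP protein genes were lower, against 14.2% of all symbols. So were 5 of 16 in the factor list, Maf1 again among them, and 1 factor was higher (Bdp1, 0.93 ± 0.27). In the other lists 2 of 7 telomerase, 2 of 7 7SK, 1 of 2 Ro60 and La, 0 of 3 5S and 0 of 1 vault genes were lower. In total RNA at 270 min 3 of 12 subunits and 3 of 11 RNase P and MRP protein genes were lower, against 12% of all symbols. So were 5 of 16 in the factor list, Maf1 included. Higher were 1 factor (Bdp1, 0.89 ± 0.27) and 1 RNase P and MRP protein gene (Pop4, 1.09 ± 0.25). In the other lists 2 of 7 7SK, 1 of 7 telomerase, 1 of 2 Ro60 and La, 0 of 3 5S and 0 of 1 vault genes were lower. Each count of lower RNase P and MRP protein genes includes Rpp40. It was under background on all nascent arrays and in total RNA at 270 min, so no fold is given. Other counted genes are bounds: in nascent RNA at 45 min Brf2 was at least 1.91-fold, Pop1 at least 1.56-fold, Dkc1 at least 1.38-fold and Rpp21 at least 1.32-fold lower. At 270 min nascent Polr3gl was at least 1.35-fold lower. Gtf3c5, Bdp1, Pop4, Brf2, Pop1 and Rpp21 are named after their values were seen. Whether the time responses of these genes differ from those of the RNAs was not tested.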

How the data were processed

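The authors deposited 1 linear intensity for each probe set and array, and the submitters' processing notes name RMA and Affymetrix Expression Console for it. The sources used here give no versions and do not say which arrays were scaled together. A single gene symbol was annotated for 21789 of 35557 probe sets. From log2 of the deposited intensities, 19938 symbols were tested with limma 3.58.1 in R 4.3.3, each by its brightest probe set, with no filter on level. Tables and figures were made with Python 3.11.15, numpy 2.4.6, pandas 2.3.3 and matplotlib 3.10.9.

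Nascent over total RNA was tested on the 6 within-culture differences, modelled by time (3 residual degrees of freedom, prior 16.5). Times within a fraction were tested on all 12 arrays, modelled by group (6, prior 7.4). The prior followed an intensity trend, and the Benjamini-Hochberg adjustment ran over all symbols. Experiments are called independent in the labels. The p-values rest on a spread between experiments that was pooled over times or groups and drawn toward that of all symbols. An SE at a single time is therefore not the spread of its own 2 values. Rn7sk at 0 min, for example, had -1.84 and -0.09 with an SE of 0.24. The pairing comes from the labels: both fractions carry the experiment number and nascent RNA was purified from the culture's own total RNA. Deviations from the group means correlated at -0.055 to 0.419 between the fractions of a culture and at -0.295 to 0.645 over all pairs of groups. Bounds ("at least") set a group under background at the higher of the background level and its own value, array by array. The fits were tested on simulated data.

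The RNAs, lists and background level were chosen with earlier results of these data known. Named are all 8 RNAs, and per list up to 3 called genes with the largest nascent-minus-total difference and the gene with the largest called change at each time. Hexim1, Rpp40 and others stand under both parts of that rule. Alternatives were no pairing or the experiment as a block, quantile scaling, only symbols above background, no trend, the mean over probe sets, an offset of 32 before log2, and each culture or array left out. No sequence was used here.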

Additional observations from a re-analysis of the deposited data

Results flagged for a closer look

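Among the 8 RNAs and the named protein genes, limma called a change of the nascent-minus-total difference between times for Rpp40, an RNase P and RNase MRP protein gene: -1.26 ± 0.26 for 45 against 0 min of LPS (adjusted p = 0.0208). Rpp40 was under background on the nascent arrays of both times, so that the value is not a measured change of its nascent RNA. Without the replicate block, or without either 45 min culture, 0 symbols were called lower in this comparison (1147, 1138 and 832 at an unadjusted p under 0.05), Rpp40 included. The groups of 2 arrays are too small for a test of single outlying arrays.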

How the results depend on the processing

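Of the values of the 8 RNAs for nascent over total RNA under the alternatives, 276 stayed on the same side of the threshold (Terc, not called, included), 7 lost their call and 1 gained one. The losses are those of Rn7sk and Rny1 without the replicate block (adjusted p = 0.108 and 0.144 at 0 min, 0.0872 for Rn7sk at 45 min), of Rn7sk at 0 min with quantile scaling (adjusted p = 0.0678) and of Rn7sk with a culture left out. Terc gained a call over the 3 times without the 45 min culture of experiment 1 (0.32, adjusted p = 0.0491), so that 0 to 1 of the 8 were called higher.

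Counts of all symbols moved more. Without the replicate block, 824 were higher in nascent RNA at 270 min, and the change of the difference was called for 3 higher and 0 lower at 45 min (1147 lower at an unadjusted p under 0.05) and for 2 higher and 47 lower at 270 min. Quantile scaling gave 56 higher and 18 lower at 45 min and 88 lower at 270 min, and the offset gave 55 lower at 45 min. With the replicate block for experiment, nascent RNA at 45 min had 1838 symbols lower and 1 of the 8 RNAs higher, also 1 with quantile scaling. Total RNA at 45 min had 17 symbols lower with the block, 2 with quantile scaling, 2 without the trend and 1 with the offset. At 270 min 1 of the 8 was higher in total RNA with the block, and 0 were lower in nascent RNA without the trend or with the mean over probe sets (Rn7sk, adjusted p = 0.0588 and 0.0753).

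With 1 culture left out, 741 to 860 symbols were higher and 1345 to 1547 lower in nascent RNA at 45 min, and 406 to 493 higher and 822 to 1175 lower at 270 min. The change of the difference at 45 min was called for 0 to 371 higher (1567 unadjusted where 0) and 0 to 1351 lower (1138 and 832 unadjusted where 0), with 0 to 1 of the 8 RNAs higher and 0 to 2 lower. At 270 min it was called for 17 to 280 higher and 84 to 838 lower, with 0 to 3 of the 8 lower. Rn7sk turned its sign at 45 min, to -0.82 without the unstimulated culture of experiment 1, against 0.06 with all and 0.94 without that of experiment 2.

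With 1 array left out, nascent RNA at 45 min had 343 to 539 symbols higher and 256 to 1510 lower, with 0 to 2 of the 8 RNAs higher and 0 to 2 lower. Rn7sk was there at -0.72 without the unstimulated array of experiment 1, against 0.11 with all and 0.93 without that of experiment 2. At 270 min nascent RNA had 1074 to 1643 symbols higher and 1786 to 2904 lower, with 0 to 3 of the 8 lower. Total RNA had 81 to 118 higher and 0 to 3 lower at 45 min (156 and 191 unadjusted where 0), and 1507 to 2180 lower at 270 min, with 0 to 2 of the 8 higher. In these settings 1 group holds 1 array or culture, which is assumed to vary like the other groups. The cause of these moves was not tested. The dim Rny1, Vaultrc5 and Terc are limited by signal over background.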
